A study of Homo sapiens with 24 samples.

Results

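Described here are 10 glycosyltransferase genes out of the 60366 genes of the deposited count table. They are FUT1, FUT2, FUT3, FUT4, FUT8, B3GALT5, ST3GAL3, ST3GAL4, ST3GAL6 and A4GALT, the fucosyl-, sialyl- and galactosyltransferases that build Lewis antigens, among them the pancreatic tumour marker CA19-9, and the globosides. The genes were chosen by name with their levels in the groups below already known, so their own values are given as a description, without p-values. RNA sequencing counts came from BXPC3, MIAPACA2 and PSN1, established cell lines of human pancreatic cancer (3 in all). Each line was given DMSO as vehicle or AM-9747, a tool compound that inhibits the arginine methyltransferase PRMT5 in cooperation with methylthioadenosine, and was collected on day 6. The dose was 100 nM in BXPC3 and PSN1 and 150 nM in MIAPACA2, so that the dose and the line cannot be told apart for MIAPACA2. All groups share the loss of MTAP that the submitters give for these lines, although the sample labels give the genotype as WT. Each of the 6 groups had 4 libraries (24 altogether), and nothing in the labels says that replicates were separate cultures. The p-values printed for other genes therefore measure the spread between these libraries, which may be technical.

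Glycosyltransferases of the Golgi add single sugars to growing glycan chains on proteins and lipids, and several of them compete for the same acceptor. B3GALT5 builds the type 1 chain, ST3GAL enzymes cap its galactose with sialic acid, and FUT3 adds the fucose that turns the capped chain into sialyl Lewis a, the epitope read by the CA19-9 assay. FUT1 and FUT2 instead place a fucose on the terminal galactose, which makes the H antigen and closes that galactose to sialic acid. FUT4 makes Lewis x on type 2 chains, FUT8 adds the core fucose of N-glycans, and A4GALT converts lactosylceramide into Gb3, the first globoside and the receptor of Shiga toxin. CA19-9 is made by ductal cells of the pancreas and by many tumours that arise there. RNA levels do not measure the enzymes or the glycans.

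Upstream sequences are shown for FUT1 and FUT3, which carried the largest fitted differences between AM-9747 and vehicle libraries, for FUT2 and for A4GALT. FUT2 makes the same linkage as FUT1, lies near it on chromosome 19 and differed in the opposite direction in BXPC3. A4GALT, the globoside enzyme, was one of the genes that stood lower in all 3 lines. Each sequence is the longest stretch of the 250 bases upstream of a RefSeq start that lies outside every exon of GENCODE 29, on GRCh38, written 5′ to 3′ on the gene's strand. Capitals mark 3 motifs: the core of a GC box, GGGCGG, the TATA box, spelled TATAAA, and an E-box, spelled CACCTG. Matches on both strands are marked, so the reverse complement of each motif is in capitals too.
FUT1, chr19:48755391-48755558, minus strand: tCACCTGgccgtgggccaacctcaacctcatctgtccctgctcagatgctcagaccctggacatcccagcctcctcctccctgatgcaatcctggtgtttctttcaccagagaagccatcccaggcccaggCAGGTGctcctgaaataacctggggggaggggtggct
FUT2, chr19:48695721-48695970, plus strand: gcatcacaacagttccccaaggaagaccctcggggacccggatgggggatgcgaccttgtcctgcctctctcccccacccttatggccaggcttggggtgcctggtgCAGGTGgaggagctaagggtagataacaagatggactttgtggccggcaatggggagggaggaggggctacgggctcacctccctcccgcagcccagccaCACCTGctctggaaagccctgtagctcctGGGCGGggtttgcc
FUT3, chr19:5851475-5851699, minus strand: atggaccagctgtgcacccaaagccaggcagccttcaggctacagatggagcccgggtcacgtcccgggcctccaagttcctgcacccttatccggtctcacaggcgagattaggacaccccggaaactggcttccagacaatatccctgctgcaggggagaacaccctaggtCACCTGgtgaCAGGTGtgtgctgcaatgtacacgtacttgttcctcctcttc
A4GALT, chr22:42720911-42721120, minus strand: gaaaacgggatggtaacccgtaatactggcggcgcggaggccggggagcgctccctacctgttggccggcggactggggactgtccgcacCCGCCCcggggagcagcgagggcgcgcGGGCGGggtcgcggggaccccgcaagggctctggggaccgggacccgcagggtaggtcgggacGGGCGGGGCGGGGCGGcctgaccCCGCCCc

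The 4 stretches differ in base composition. Over the whole 250-base windows, the A4GALT window was 79.2% GC with 33 CpG dinucleotides and 7 matches to GGGCGG. The FUT1, FUT2 and FUT3 windows were 58.4, 64.0 and 59.2% GC, with 3, 7 and 8 CpG dinucleotides, against a median of 58% and 11 over 35116 RefSeq windows. FUT1, FUT2 and FUT3 each held 2 matches to CACCTG, a motif found in 17.5% of all windows, and A4GALT held none. GGGCGG had 1 match in the FUT2 window and 1 in the FUT3 window, in exon sequence that is not shown for FUT3, and 42.6% of all windows held it. TATAAA was in none of the 4 windows and in 10.7% of all. RefSeq lists another start for FUT1 and another for A4GALT, and the counts do not tell which start was in use. The other FUT1 window was 74.8% GC with 24 CpG dinucleotides and 4 matches to GGGCGG, and the other A4GALT window was 42.0% GC with 5 and 1. Matches to short motifs are a description of the letters, not of binding.

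Library totals ran from 22.4 to 45.6 M counts. Before scaling, 1 CPM (counts per 1000000 counts, or per M counts) thus stood for at least 22.4 counts. The CPM given here are scaled, and 1 CPM stood for fewer counts where the scaling factor was below 1 (0.786 in PSN1 vehicle replicate 3). Mitochondrial transcripts made up 17.4 to 43.8% of PSN1 vehicle libraries (median 35.5%) and 7.98 to 31.1% of PSN1 AM-9747 libraries (median 20.5%), against 4.34 to 20.5% in the other groups. PSN1 vehicle replicate 3 stood apart, with the smallest total and the fewest genes detected (16646, against up to 27120). Libraries of one group correlated across genes with a mean r of 0.864 to 0.911 in PSN1 vehicle and of 0.940 to 0.980 in the other groups. Genes at an adjusted p below 0.05 (edgeR's quasi-likelihood test, Benjamini-Hochberg, each line fitted alone) were 5158 of 17638 in BXPC3, 2456 of 18090 in MIAPACA2 and 1954 of 18287 in PSN1. Without scaling of the library totals, the median log2 fold change of all genes moved to 0.15 in MIAPACA2 (it was -0.00) and to 0.37 in PSN1 (it was 0.03). The split of calls then moved from 1218 higher and 1238 lower to 1915 and 638 in MIAPACA2, and from 826 and 1128 to 1212 and 542 in PSN1.

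The epithelial label was checked on 6 markers. In BXPC3 vehicle all 6 exceeded 1 CPM, with the adhesion genes CDH1 at a median of 613 and EPCAM at 111 CPM. In MIAPACA2 vehicle 3 of 6 did, and the defining markers CDH1 and EPCAM were near 0, at 0.10 and 0.03 CPM, while the keratins KRT8 and KRT18 were present. PSN1 vehicle had 5 of 6, with CDH1 at 0.35 and EPCAM at 7.55 CPM. The 4 mesenchymal markers did not all rank the lines alike. In BXPC3, MIAPACA2 and PSN1 vehicle, VIM had medians of 7.24, 8941 and 988 CPM. ZEB1 ranked the lines as VIM did, at 0.11, 31.4 and 15.3 CPM. FN1 stood at 38.4, 0.52 and 873 CPM. CDH2 was at 8.15 CPM in BXPC3 vehicle and at a median of 0 in the other lines. Of the immune markers, PTPRC was at most 0.08 CPM by group median, CD3E was at 0 outside BXPC3 (0.94 CPM in vehicle there), and CD68 reached 31.3 CPM in BXPC3 vehicle. Fibroblast markers above 1 CPM were 2, 2 and 3 of 5 in the 3 vehicle groups. COL1A2 stood at 2169 CPM in MIAPACA2 vehicle, and DCN at vehicle medians of at most 0.0606 CPM. With AM-9747 the fibroblast counts were 2, 2 and 5 of 5, with DCN at a median of 1.41 CPM in PSN1. Endothelial markers above 1 CPM were 3, 0 and 1 of 3 in vehicle, with PECAM1 at 37.8 CPM in PSN1. The acinar marker PRSS1 stood at 93.5 CPM in PSN1 vehicle and at 1.71 CPM with AM-9747, and CELA3A was at 0 in every library. GCG, an islet hormone, was at 0 in every library and INS reached at most 0.29 CPM. The part of these marker levels in the results below was not tested.

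**Figure D1:**
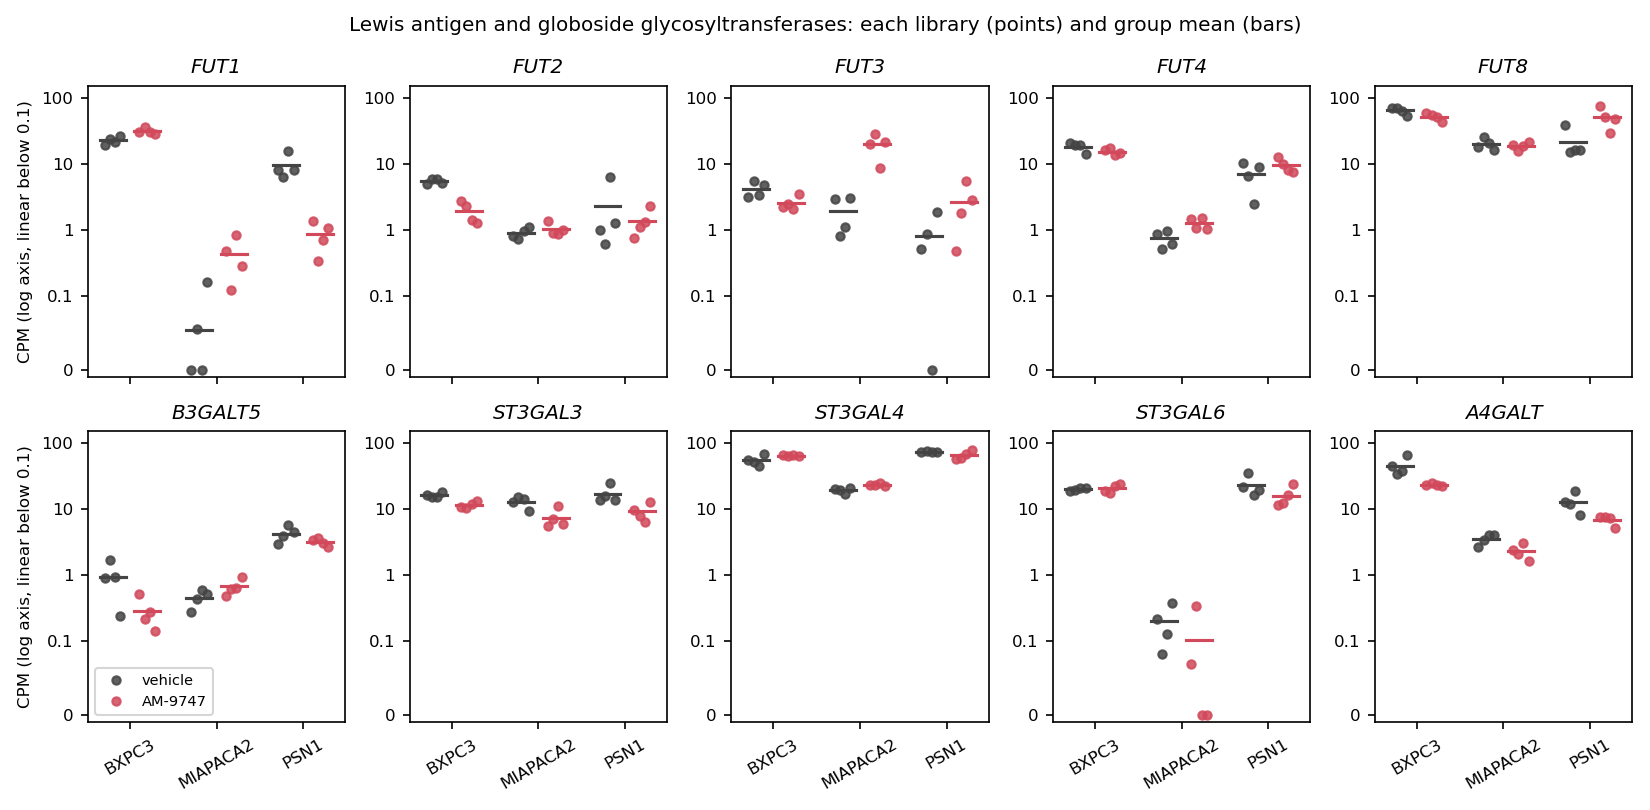
Level of each of the 10 glycosyltransferase genes in every library, in CPM on an axis that is logarithmic above 0.1 and linear below it, by line, with vehicle in grey and AM-9747 in red. Points are the 4 libraries of a group and bars their mean. FUT3 in MIAPACA2 and FUT1 in PSN1 show the widest gaps between treated and vehicle libraries.

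Of the H antigen fucosyltransferases, FUT1 had its largest fitted difference between treated and vehicle libraries in PSN1, and FUT2 in BXPC3. FUT1 (ENSG00000174951, chromosome 19, 48748011 to 48755390, minus strand) stood in PSN1 vehicle at 7.99, 6.30, 15.7 and 8.10 CPM in replicates 1 to 4. With AM-9747 it stood at 1.35, 0.334, 0.712 and 1.07 CPM. Every treated PSN1 library was far below every vehicle library. The means were 9.51 ± 4.18 and 0.867 ± 0.441 CPM (SD, n = 4 libraries in this and every later mean), a 10.97-fold lower level, with a log2 fold change of -3.50 ± 0.54 (SE). The log2 value was -3.12 without PSN1 vehicle replicate 3 and -3.45 with the mitochondrial share as a covariate. In BXPC3 the direction was the opposite: FUT1 stood at 19.2, 23.8, 21.0 and 26.4 CPM in vehicle and at 29.8, 35.4, 30.5 and 28.4 CPM with AM-9747. The BXPC3 groups did not overlap, but the difference was small, at log2 0.46 ± 0.14. In MIAPACA2 the gene was close to absent. Vehicle libraries held 0, 2, 0 and 6 counts and treated libraries 21, 5, 32 and 13, up to 0.827 CPM, and the gene was below the filter on low counts. A count of 0 allows up to 0.0940 CPM in vehicle replicate 1 and 0.0647 in replicate 3 (an upper limit of 3 counts, for counting error only).

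FUT2 (ENSG00000176920, chromosome 19, 48695971 to 48705950, plus strand), the secretor gene, is active in many secreting epithelia. It stood in BXPC3 at 4.93, 5.87, 5.90 and 5.08 CPM in vehicle and at 2.70, 2.32, 1.43 and 1.27 CPM with AM-9747. The groups did not overlap, and the mean was 2.82-fold lower with AM-9747 (5.45 ± 0.513 and 1.93 ± 0.689 CPM, log2 -1.49 ± 0.25). FUT1 and FUT2, which make the same kind of linkage, thus stood on opposite sides in this line. MIAPACA2 had little FUT2, at 0.742 to 1.11 CPM in vehicle and 0.879 to 1.38 CPM with AM-9747, and the groups overlapped. In PSN1, vehicle replicate 3 stood at 6.30 CPM while the other vehicle libraries stood at 0.603 to 1.26 CPM and the treated ones at 0.748 to 2.33 CPM. The PSN1 log2 value of -0.77 ± 0.82 became 0.51 without that library and -0.02 with the mitochondrial share as a covariate. PSN1 therefore gave no direction for FUT2. Of the 50-base windows of FUT2 transcripts, 6.495% are shared with other genes, most of them with the pseudogene SEC1P.

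FUT3 (ENSG00000171124, chromosome 19, 5842888 to 5851474, minus strand), the Lewis enzyme that completes CA19-9, gave the largest difference of the 10 genes in MIAPACA2. It stood there at 2.91, 0.797, 1.10 and 2.99 CPM in vehicle and at 20.2, 28.3, 8.58 and 21.6 CPM with AM-9747. The lowest treated library was above the highest vehicle library. The means were 1.95 ± 1.16 and 19.6 ± 8.18 CPM, 10.1-fold higher with AM-9747, at log2 3.36 ± 0.48, and the log2 value lay between 3.09 and 3.65 under every alternative tried. In BXPC3 the level was lower with AM-9747, at 3.18, 5.50, 3.36 and 4.86 CPM in vehicle against 2.21, 2.44, 2.06 and 3.53 CPM, with overlap (log2 -0.72 ± 0.26). In PSN1 it stood at 0.508, 0.881, 0 and 1.86 CPM in vehicle and at 0.483, 1.82, 5.58 and 2.87 CPM with AM-9747. These groups overlapped too (log2 1.66 ± 1.08), and the 0 of vehicle replicate 3 allows up to 0.170 CPM. The order of the lines changed with treatment. BXPC3 had the most FUT3 in vehicle, apart from the other lines, and MIAPACA2 had the most with AM-9747, again apart.

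FUT3 has close paralogs, FUT5 and FUT6, on the same chromosome, and 13.8% of the 50-base windows of its transcripts recur in other genes, so how the reads were shared out between them bears on its counts. In MIAPACA2, FUT6, named after its values were seen, held 2 to 18 counts in vehicle and 45 to 68 with AM-9747. Its level rose from 0.167 to 1.29 CPM (adjusted p 0.0251 by edgeR's quasi-likelihood test, log2 2.95 ± 0.74), and the adjusted p was 0.0966 in a fit of all lines together. FUT5 held 0 to 23 counts in vehicle and 8 to 30 with AM-9747. Both paralogs held fewer counts than FUT3 in treated MIAPACA2, and how the reads were shared out between these genes was not tested.

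FUT4 (ENSG00000196371, chromosome 11, 94543840 to 94549898, plus strand), which fucosylates type 2 chains, was near 1 CPM or below in MIAPACA2 and higher in the other lines. In MIAPACA2 it stood at 0.877, 0.522, 0.970 and 0.620 CPM in vehicle and at 1.45, 1.06, 1.52 and 1.04 CPM with AM-9747, without overlap (log2 0.78 ± 0.40). It stood at 14.1 to 20.6 CPM in BXPC3 vehicle and 13.6 to 17.1 CPM with AM-9747, and at 2.44 to 10.3 and 7.49 to 12.7 CPM in PSN1, with overlap in both. The single coding exon of FUT4 overlaps PIWIL4 on the same strand, and 9.73% of its 50-base windows are shared with that gene. PIWIL4 went from 0.345 to 0.762 CPM in MIAPACA2, from 5.25 to 13.4 CPM in BXPC3 and from 11.2 to 6.45 CPM in PSN1. Mean FUT4 went from 0.747 to 1.27, from 18.3 to 15.3 and from 7.05 to 9.51 CPM in these lines. The part of PIWIL4 reads in the FUT4 counts was not tested.

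FUT8 (ENSG00000033170, chromosome 14, 65410592 to 65744121, plus strand), the core fucosyltransferase, was among the most abundant of the 10 genes. In PSN1 it stood at 38.9, 15.1, 15.9 and 16.0 CPM in vehicle and at 74.1, 50.4, 29.4 and 46.8 CPM with AM-9747. The treated mean was 2.34-fold higher (21.5 ± 11.6 and 50.2 ± 18.4 CPM, log2 1.19 ± 0.36), and only vehicle replicate 1 reached into the treated range. The log2 value was 0.70 with the mitochondrial share as a covariate and 1.09 without vehicle replicate 3. BXPC3 went the other way by a small amount, from 53.6 to 70.1 CPM in vehicle to 42.9 to 57.9 CPM with AM-9747 (log2 -0.31 ± 0.14, with overlap). MIAPACA2 stood at 16.0 to 25.7 and 15.5 to 21.3 CPM (log2 -0.08 ± 0.17).

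B3GALT5 (ENSG00000183778, chromosome 21, 39556442 to 39673137, plus strand), the type 1 chain galactosyltransferase on which CA19-9 rests, was the scarcest of the genes per base of exon in BXPC3. It stood at 0.910, 1.69, 0.948 and 0.243 CPM in BXPC3 vehicle and at 0.513, 0.217, 0.275 and 0.145 CPM with AM-9747. Vehicle replicate 4 lay inside the treated range, so the groups overlapped, with a log2 fold change of -1.71 ± 0.60. MIAPACA2 held 0.282 to 0.603 CPM in vehicle and 0.483 to 0.950 CPM with AM-9747. PSN1 had more of this gene than the other lines, without overlap, at 2.96 to 5.67 CPM in vehicle and 2.68 to 3.65 CPM with AM-9747. The PSN1 difference was -0.46 ± 0.41 on the log2 scale and -0.08 without scaling of the library totals. MIAPACA2 with AM-9747 thus combined the highest FUT3 level of the study with a B3GALT5 level below 1 CPM in all 4 libraries.

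The sialyltransferases did not move as one. ST3GAL3 (ENSG00000126091, chromosome 1, 43705824 to 43931165, plus strand), which prefers type 1 chains, was lower with AM-9747 in all 3 lines. It stood in BXPC3 at 16.4, 15.4, 14.98 and 18.3 CPM in vehicle and at 10.8, 10.3, 11.9 and 13.1 CPM with AM-9747. In PSN1 it stood at 13.5, 15.9, 24.9 and 13.6 CPM and at 9.78, 7.90, 6.47 and 12.9 CPM. The groups did not overlap in either line (log2 -0.49 ± 0.13 and -0.92 ± 0.32), and the PSN1 value was -0.65 without vehicle replicate 3. MIAPACA2 stood at 12.6, 15.2, 14.0 and 9.44 CPM in vehicle and at 5.54, 7.01, 11.04 and 6.03 CPM with AM-9747. Treated replicate 3 reached above vehicle replicate 4 there (log2 -0.76 ± 0.24). Of the 50-base windows of ST3GAL3 transcripts, 9.69% recur in other genes, most of them in AL451062.3.

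ST3GAL4 (ENSG00000110080, chromosome 11, 126355640 to 126440344, plus strand), which sialylates type 2 chains, had the highest CPM per kb of exon of the 3 ST3GAL genes described here in all groups. In MIAPACA2 it stood at 20.3, 19.2, 17.1 and 20.8 CPM in vehicle and at 23.0, 22.7, 25.1 and 22.5 CPM with AM-9747. These groups did not overlap, although the difference was only log2 0.29 ± 0.13, and 0.45 without scaling. BXPC3 stood at 44.5 to 67.6 CPM in vehicle and 62.4 to 66.2 CPM with AM-9747. PSN1 stood at 71.6 to 75.3 and 57.9 to 77.6 CPM, at log2 -0.19 ± 0.19, which turned to 0.13 without scaling. ST3GAL6 (ENSG00000064225, chromosome 3, 98732236 to 98821201, plus strand), also a type 2 chain enzyme, was nearly absent from MIAPACA2. It held at most 0.378 CPM there, with 0 counts in treated replicates 3 and 4, which allow up to 0.0775 and 0.0663 CPM. It stood at 19.0 to 21.1 CPM in BXPC3 vehicle and 17.3 to 23.6 CPM with AM-9747, and at 16.6 to 35.1 and 11.5 to 24.04 CPM in PSN1. The treated and vehicle groups overlapped in all 3 lines (log2 0.04 ± 0.14 in BXPC3 and -0.58 ± 0.33 in PSN1).

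A4GALT (ENSG00000128274, chromosome 22, 42692112 to 42721298, minus strand), the Gb3 synthase, was lower with AM-9747 in all 3 lines, like ST3GAL3. In BXPC3 it stood at 44.5, 33.5, 37.0 and 65.5 CPM in vehicle and at 23.3, 24.4, 23.5 and 22.6 CPM with AM-9747. The treated libraries lay close together and all below the vehicle libraries. The means were 45.1 ± 14.3 and 23.4 ± 0.755 CPM, 1.93-fold lower (log2 -0.94 ± 0.20). In PSN1 it stood at 12.7, 12.0, 18.7 and 8.17 CPM and at 7.53, 7.54, 7.39 and 5.08 CPM, again without overlap (log2 -0.94 ± 0.33, and -0.68 without vehicle replicate 3). MIAPACA2 stood at 2.63, 3.35, 4.07 and 4.10 CPM in vehicle and at 2.41, 2.12, 3.05 and 1.61 CPM with AM-9747 (log2 -0.60 ± 0.28). Treated replicate 3 overlapped the vehicle range in that line. Both A4GALT and ST3GAL3 kept their lower direction in each line without scaling of the library totals.

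**Figure D2:**
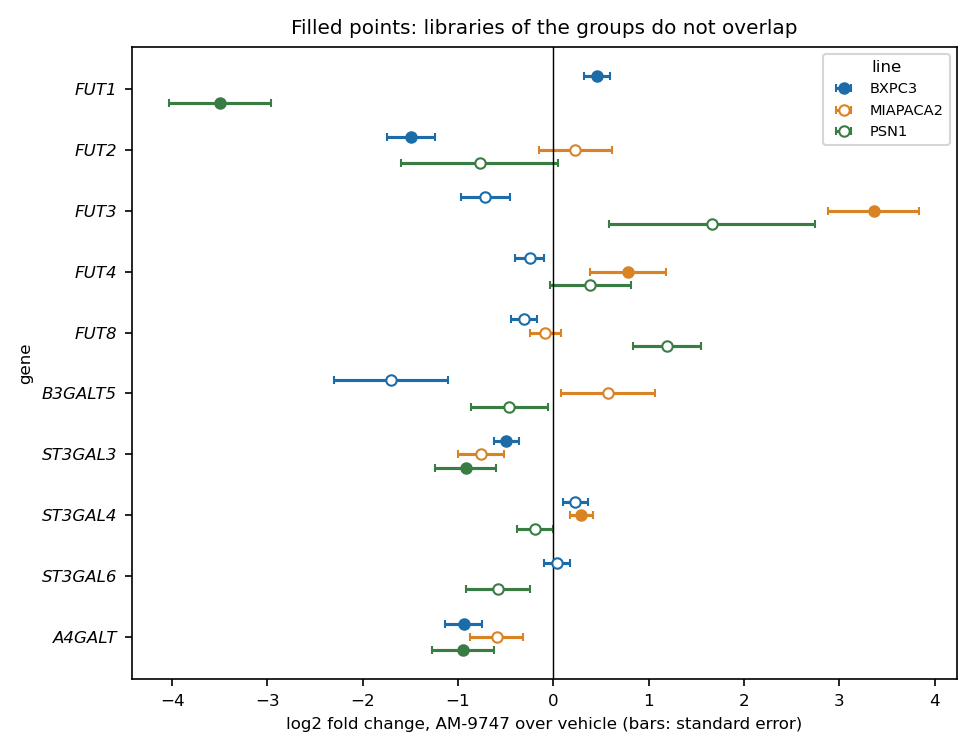
Log2 fold change of AM-9747 over vehicle for each gene in each line, with bars of 1 SE. Filled points mark genes whose 4 treated and 4 vehicle libraries do not overlap, and genes below the filter (FUT1 and ST3GAL6 in MIAPACA2) have no point. FUT1 lies at -3.50 in PSN1 and 0.46 in BXPC3, FUT3 at 3.36 in MIAPACA2, and the ST3GAL3 and A4GALT points lie left of 0 in all lines.

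Counted over lines, the genes went different ways. In BXPC3, 4 of 10 passed an adjusted p of 0.05 over all genes (FUT1 higher; FUT2, ST3GAL3 and A4GALT lower), beside 29.2% of all genes (13.2% higher and 16% lower). In MIAPACA2, 1 of 8 tested passed, FUT3, which was higher, beside 13.6% of all genes (6.73% higher and 6.84% lower). In PSN1, 1 of 10 passed, FUT1, which was lower, beside 10.7% (4.52% higher and 6.17% lower). Nothing is read from these counts, since the genes were chosen with the same values in view. Treated libraries lay wholly above vehicle for 1 gene and wholly below for 3 in BXPC3, beside 15% and 17.2% of all genes. They lay wholly above for 3 (FUT3, FUT4 and ST3GAL4) and below for 0 in MIAPACA2, beside 9.88% and 11%. In PSN1 they lay wholly above for 0 and below for 3 (FUT1, ST3GAL3 and A4GALT), beside 11.7% and 9.71%. The tested genes had a median log2 fold change of -0.40 for BXPC3, 0.26 for MIAPACA2 and -0.52 for PSN1, beside medians of all genes of 0.00, -0.00 and 0.03. In these bulk samples, fewer cells making a transcript and less of it per cell cannot be told apart.

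Some of the genes counted above left the count when the processing changed, which is given as a description only. FUT1 in BXPC3 left it without vehicle replicate 1, 2 or 3 or AM-9747 replicate 2 or 3, without the filter on low counts and in the joint fit. ST3GAL3 in BXPC3 left it without vehicle replicate 1 or AM-9747 replicate 2 and in the joint fit, and FUT2 in the joint fit. Others entered the count under some settings. FUT8 in PSN1, higher with AM-9747, entered without the filter, by DESeq2, in the joint fit, with a replicate block and without vehicle replicate 1. A4GALT and ST3GAL3 also entered in PSN1, ST3GAL3, ST3GAL4 and FUT1 in MIAPACA2, and B3GALT5, FUT3, FUT4, FUT8 and ST3GAL4 in BXPC3.

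Levels of different genes were set against each other as CPM per kb of exon (the union of exons of GENCODE 29). In BXPC3 vehicle, A4GALT (13.2 CPM per kb), ST3GAL4 (12.3) and FUT8 (9.56) led, with gaps between neighbours that did not exceed the sum of their SDs. FUT1 followed at 5.20, below FUT8 by more than the spread, then ST3GAL6 at 3.19 and FUT4 at 3.01, which did not differ beyond it. FUT2 (1.61), FUT3 (1.36), ST3GAL3 (0.835) and B3GALT5 (0.0662) came last. The latter pair have long annotated exon unions, of 19475 bases for ST3GAL3 and 14319 for B3GALT5 against 3109 to 6700 for the other genes. In CPM, before division by length, ST3GAL3 (16.3) stood above FUT2 (5.45) and FUT3 (4.23) in this group. B3GALT5 was the lowest of the genes in CPM as well, at 0.948.

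With AM-9747 in BXPC3, ST3GAL4 led alone at 14.4 CPM per kb. FUT8 (7.71), FUT1 (7.14) and A4GALT (6.88) came next within their spread of each other. In MIAPACA2 vehicle, ST3GAL4 (4.33), FUT8 (2.997) and A4GALT (1.04) headed the order, each apart from the next, and the other genes were at 0.658 or less. With AM-9747, FUT3 stood first at 6.32 CPM per kb, within the spread of ST3GAL4 at 5.23. In PSN1 ST3GAL4 was first by more than the spread, at 16.3 in vehicle and 14.7 with AM-9747, and in vehicle no other neighbours in the order were apart. FUT8 was second in treated PSN1 at 7.49, apart from ST3GAL6 at 2.54. FUT1 moved from the fifth place in PSN1 vehicle (2.19) to the last with AM-9747 (0.200), where it did not differ from B3GALT5 beyond the spread.

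**Figure D3:**
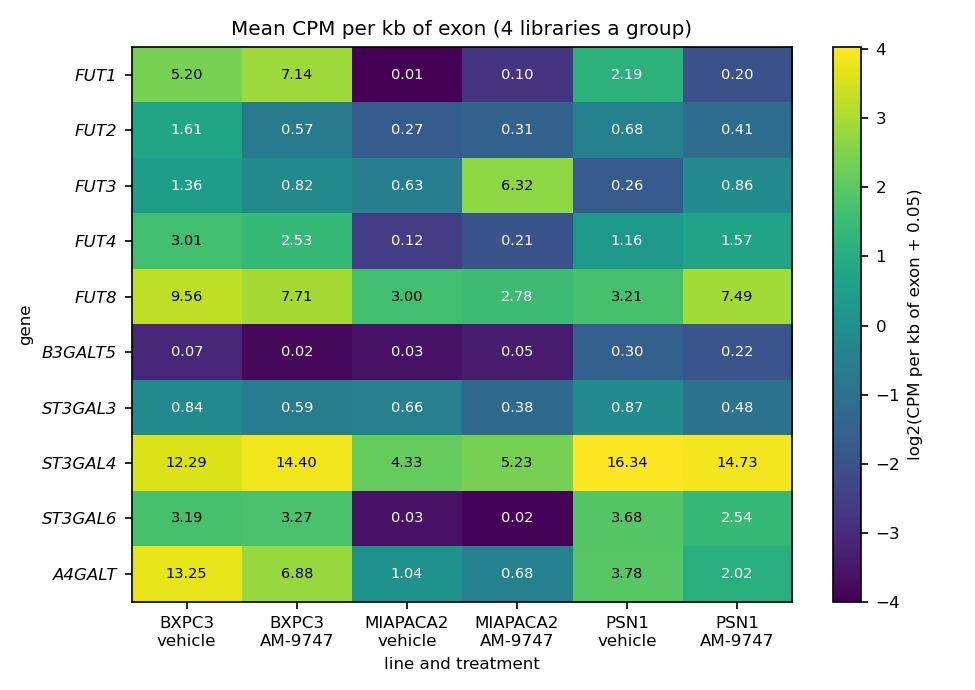
Mean level per kb of exon in the 6 groups, as a heat map whose colour is log2 of CPM per kb plus 0.05, with the mean of 4 libraries printed in each cell. ST3GAL4 is first in 4 of the 6 groups, after A4GALT in BXPC3 vehicle (13.2) and after FUT3 in MIAPACA2 with AM-9747 (6.32).

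Across lines, MIAPACA2 vehicle had the least FUT1, FUT4, ST3GAL4, ST3GAL6 and A4GALT, without overlap with the other lines. FUT4 and A4GALT stood highest in BXPC3, then PSN1, then MIAPACA2, in vehicle and with AM-9747 alike, and no library of one line reached the next. FUT1 had the same order, with lines apart in vehicle, but treated PSN1 and MIAPACA2 overlapped. ST3GAL6 separated MIAPACA2 from the other lines in both conditions. The epithelial markers of MIAPACA2 vehicle, where these genes were low, were mixed. Medians were 0.10 CPM for CDH1, 0.03 for EPCAM, 0.10 for KRT7 and 23.6 for KRT19. KRT8 stood at 684 CPM, above the 406 of PSN1 vehicle, and KRT18 at 741 CPM against 894. CDH1 was also near 0 in PSN1 vehicle, at 0.35 CPM. The part of the epithelial state in these levels was not tested.

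Genes with the most similar pattern were sought by the root mean square difference of log2 CPM over the 6 centred group means, among 13310 candidates. FUT1 had the poorest match, STAT4 and RNF217 at 0.84 each, and FUT3 the next poorest, AC068896.3 at 0.56 and C2 at 0.60. ST3GAL3 was matched by QARS1 (0.12) and EML3 (0.13), ST3GAL4 by SRC (0.12) and MAFK (0.15), and FUT4 by TPM1 (0.17) and OPN3 (0.20). FUT8 was nearest to RAMAC and MANBA (0.18 each), ST3GAL6 to MAMLD1 (0.17), FUT2 to SELENBP1 (0.20), A4GALT to PLEKHG3 (0.22) and B3GALT5 to NABP1 (0.35). With 6 group means, such matches are a description only.

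The other genes of the same routes were taken as 86 genes in 4 lists, none of them among the 10 above. These lists, too, were chosen with earlier results of these data known. The shares and p-values given for them are therefore not those of an independent choice. In BXPC3, 27 of 69 tested passed (39.1%), 4 higher and 23 lower, beside 29.2% of all genes. In MIAPACA2, 11 of 62 passed (17.7%), 5 higher and 6 lower, beside 13.6%. In PSN1, 6 of 70 passed (8.57%), 2 higher and 4 lower, beside 10.7%. The MIAPACA2 count was 7 without vehicle replicate 3, 6 without AM-9747 replicate 1 and 17 without replicate 3. The PSN1 count was 13 (8 higher and 5 lower) without vehicle replicate 1 and 3 without vehicle replicate 2 or 4 or AM-9747 replicate 1, 2 or 4. Its lean to lower calls did not hold in the joint fit (9 higher and 7 lower), with the replicate block (5 and 4) or without scaling (2 and 2). Without scaling the MIAPACA2 split turned to 7 higher and 5 lower. BXPC3 had a median log2 fold change over the tested genes of -0.32, MIAPACA2 of -0.17 and PSN1 of 0.26. The p-values below are adjusted ones from edgeR's quasi-likelihood test in the line named. Among the 4 lists, BXPC3 calls leaned lower in each. Of all genes tested in BXPC3, 13.2% passed as higher and 16% as lower. For MIAPACA2 these shares were 6.73 and 6.84%, and PSN1 had 4.52 and 6.17%.

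Fucose supply, transfer and removal made up the first list of 16 genes, which includes FUT5 and FUT6. In BXPC3, 5 of 13 tested fell and 0 rose (38.5%, beside 29.2% of all genes), with a median of -0.56. In MIAPACA2, 2 of 13 rose and 2 fell (30.8%, beside 13.6%), with a median of -0.24. PSN1 had 1 of 14 that fell (7.14%, beside 10.7%), with a median of 0.15. FUCA1, the lysosomal fucosidase, fell in BXPC3 from 80.4 ± 7.52 to 30.1 ± 1.13 CPM (adjusted p 4.86e-05, log2 -1.41 ± 0.11) and in MIAPACA2 from 29.1 ± 2.41 to 12.4 ± 3.08 CPM (adjusted p 0.00246, log2 -1.20 ± 0.18). SLC35C2, a Golgi protein tied to fucosylation, fell in BXPC3 from 83.7 ± 10.6 to 47.8 ± 6.48 CPM (adjusted p 0.00246) and in PSN1 from 91.0 ± 14.0 to 38.9 ± 5.69 CPM (adjusted p 0.00714, log2 -1.27 ± 0.22). TSTA3, the GDP-fucose synthase, fell in MIAPACA2 from 35.2 ± 3.97 to 16.4 ± 1.341 CPM (adjusted p 0.00105, log2 -1.07 ± 0.13), in the line in which FUT3 was higher. FPGT, of fucose salvage, fell in BXPC3 from 3.31 ± 0.614 to 1.53 ± 0.245 CPM (adjusted p 0.00429).

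Sialic acid supply, transfer and removal made up a list of 26 genes. In BXPC3, 6 of 16 tested fell and 2 rose (50%, beside 29.2% of all genes), with a median of -0.33. ST6GALNAC1, which makes the sialyl-Tn antigen, fell 5.50-fold there, from 9.88 ± 0.845 to 1.80 ± 0.514 CPM (adjusted p 7.61e-05, log2 -2.45 ± 0.22). Its relative ST6GALNAC2 fell from 134 ± 20.7 to 57.0 ± 3.41 CPM (adjusted p 1.91e-04, log2 -1.22 ± 0.13). In MIAPACA2, 0 of 16 tested passed by edgeR's quasi-likelihood test, beside 13.6% of all genes. Of these 16, 3 had an unadjusted p below 0.05, and 0 passed by DESeq2. In PSN1, 1 of 17 passed (5.88%, beside 10.7% of all genes), the sialidase NEU4. It fell from 9.85 ± 4.90 to 2.32 ± 1.10 CPM (adjusted p 0.0239, log2 -2.13 ± 0.50). NEU4 did not pass with the mitochondrial share as a covariate (adjusted p 0.114, log2 -1.51) nor without vehicle replicate 2 or 4 or AM-9747 replicate 1, 2 or 4.

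Chain extension, branching and galactose supply made up a list of 25 genes. In BXPC3, 8 of 23 tested fell and 2 rose (median -0.27), which is 43.5% beside 29.2% of all genes. MIAPACA2 had 1 of 19 that fell and 2 that rose (median -0.05), 15.8% beside 13.6%. In PSN1, 2 of 22 fell (median 0.35), 9.09% beside 10.7%. ABO, the blood group transferase that works on the H antigen, fell 6.46-fold in BXPC3, from 22.2 ± 4.51 to 3.43 ± 1.22 CPM (adjusted p 1.65e-04, log2 -2.69 ± 0.28). B3GNT8, which extends lactosamine chains, fell there from 2.33 ± 0.510 to 0.734 ± 0.289 CPM (adjusted p 0.00420, and 0.421 in the joint fit). B3GNT5, which starts the lacto-series on glycolipids, rose in MIAPACA2 from 0.607 ± 0.244 to 2.16 ± 0.563 CPM (adjusted p 0.0173, log2 1.86 ± 0.43). The adjusted p of B3GNT5 was 0.0529 without AM-9747 replicate 1 and 0.0588 without replicate 4. B4GALT2, a type 2 chain galactosyltransferase, fell in MIAPACA2 from 44.4 ± 2.11 to 27.6 ± 3.87 CPM (adjusted p 0.00908). In PSN1 it fell from 122 ± 23.1 to 76.5 ± 5.41 CPM (adjusted p 0.0447). The PSN1 call of B4GALT2 was lost without scaling (adjusted p 0.287), without the filter (0.107), with the mitochondrial covariate (0.103) and without any single library other than vehicle replicate 1.

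Glycosphingolipid synthesis and breakdown made up a list of 19 genes. In BXPC3, 4 of 17 tested fell and 0 rose (median -0.26), which is 23.5%, below the 29.2% of all genes. MIAPACA2 had 3 of 14 that fell and 1 that rose (median -0.27), 28.6% beside 13.6%. In PSN1, 2 of 17 rose and 0 fell (median 0.43), 11.8% beside 10.7%. HEXA, a subunit of lysosomal beta-hexosaminidase, fell in MIAPACA2 from 103 ± 10.8 to 44.7 ± 6.02 CPM (adjusted p 6.78e-04, log2 -1.18 ± 0.13) and in BXPC3 from 168 ± 6.86 to 120 ± 6.80 CPM (adjusted p 0.00627, log2 -0.48 ± 0.10). The genes that rose in PSN1 act on either side of A4GALT. B4GALT5, which makes the lactosylceramide that A4GALT uses, rose from 59.1 ± 19.1 to 131 ± 37.5 CPM (adjusted p 0.0299, log2 1.10 ± 0.28). B3GALNT1, which extends Gb3 to globoside, rose from 4.45 ± 2.29 to 18.3 ± 5.70 CPM (adjusted p 0.0109, log2 2.00 ± 0.38). With the mitochondrial share as a covariate, B3GALNT1 passed (adjusted p 0.0135, log2 1.502) and B4GALT5 did not (adjusted p 0.0869, log2 0.78). B4GALT5 also lost its call without PSN1 vehicle replicate 2 or 4 or AM-9747 replicate 1, 2 or 4. Without vehicle replicate 3 both passed, at log2 1.86 for B3GALNT1 and 0.96 for B4GALT5.

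**Figure D4:**
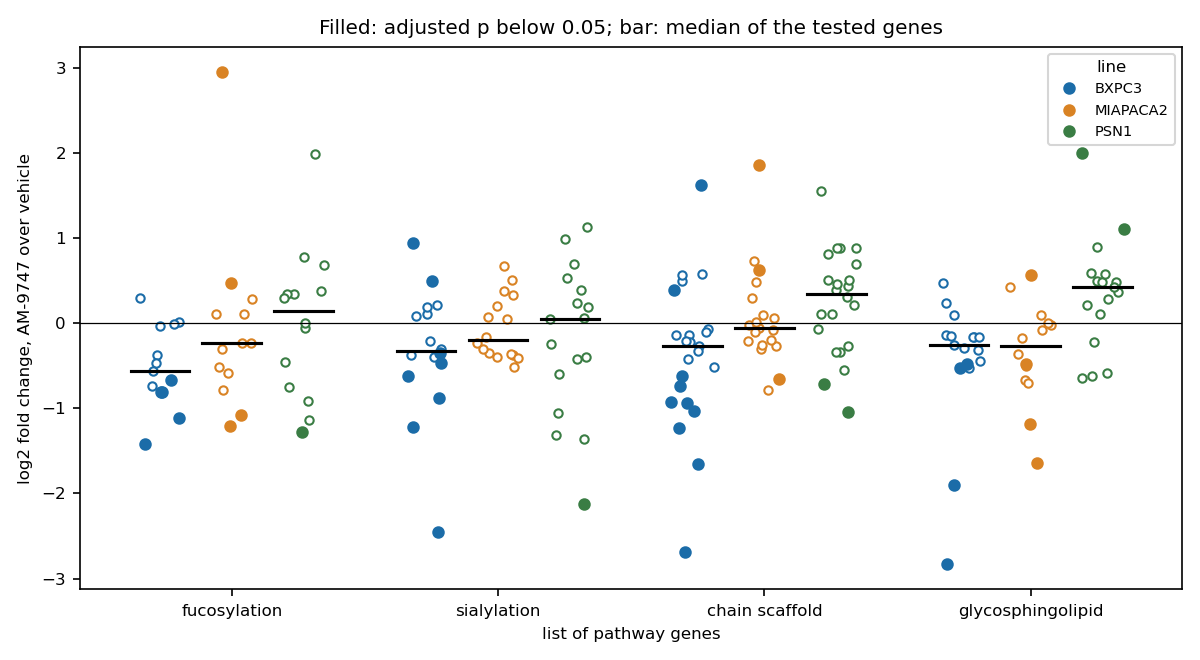
Log2 fold change of AM-9747 over vehicle for the tested genes of 4 pathway lists, by line, with filled points at an adjusted p below 0.05 and a bar at the median. The BXPC3 medians lie between -0.56 and -0.26, and the PSN1 medians between 0.05 and 0.43.

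Whether a gene's response differed between the lines was tested for the pathway genes in the joint fit of all 24 libraries. The responses differed for 11 of 77 tested (14.3%), beside 12.1% of all genes. With single libraries left out the count ran from 4 (without BXPC3 vehicle replicate 1) to 29 (without PSN1 vehicle replicate 1), and it was 6 without the filter and 23 by DESeq2. Among them were POFUT1, FPGT, SLC35C2, ST6GALNAC6, B4GALT4, B4GALT5, B3GALNT1, GLA and HEXA. In BXPC3, B4GALT5 stood at 324 ± 66.4 and 225 ± 70.7 CPM, and at 74.5 ± 25.7 and 45.9 ± 9.43 CPM in MIAPACA2, lower with AM-9747 in the mean of both lines, where it did not pass, and rose in PSN1 (adjusted p of the difference 0.00451).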

How the data were processed

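Poly(A) RNA of 24 libraries was sequenced from a stranded kit, per the labels' protocols. Per the submitters' processing notes, the authors used fastp 0.19.8, HISAT2 2.2.0 and GRCh38, with R 4.0.2 and DESeq2 1.34.0. Which tool counted the reads, with which annotation and strand setting, is not given in the sources used here, so reads of overlapping, antisense or paralogous genes may have been shared out in ways that cannot be seen. The deposited values are raw read counts per gene for 60366 genes, of which 56271 matched GENCODE 29 by identifier and 1862 carried no Ensembl identifier. Groups were taken from the sample titles.

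Each line was fitted alone, because its spread differed (biological coefficient of variation 26.6% in BXPC3, 32.1% in MIAPACA2 and 55.1% in PSN1). The fit was edgeR 4.0.16 (quasi-likelihood test), run under R 4.3.3 (with limma 3.58.1), using TMM scaling and filterByExpr, which left 6 residual degrees of freedom. P-values were adjusted by Benjamini-Hochberg over all genes tested in the line, with 0.05 as the threshold. A joint fit of the 6 groups gave the test between lines. Levels are CPM with TMM scaling over all libraries, and log2 CPM used a prior count of 2. The SE of a log2 fold change is its size over the square root of F. No pair of replicates agreed within sampling noise (lowest chi-square per gene 7.14). The procedure was also run on counts simulated with the spread fitted in each line. As the simulation took that spread from the fit, it cannot check the calls in these data.

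The 10 genes and the 4 pathway lists were chosen with earlier results of these data known. Pathway genes are named where they passed in the same direction in at least 2 lines, or were among the 2 largest changes of their list in a line with a mean of at least 1 CPM. Names outside this rule were picked with their values in view. Some genes of the lists enter the counts but are not reported by name here. Upstream sequences are RefSeq's, build GRCh38.p14. Alternatives were median-of-ratios scaling, no scaling, no filter, a mean of at least 1 CPM, DESeq2 1.42.0, the joint fit, a replicate block, each library left out and, chosen after seeing the data, the mitochondrial share as a covariate.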

Additional observations from a re-analysis of the deposited data

Results flagged for a closer look

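Single libraries stood apart from the other 3 of their group in 8 of 96 combinations of gene and group examined. The measure was the gap to the nearest library over the group's whole range (Dixon's test). Chance alone gives about 1 in 20 of independent combinations, but these share the same 24 libraries. Named pathway genes were examined only in lines where they passed. Of the 10 glycosyltransferase genes, FUT2 stood at 6.30 CPM in PSN1 vehicle replicate 3 (others 0.603 to 1.26). FUT8 stood at 38.9 CPM in PSN1 vehicle replicate 1 (others 15.1 to 16.0), and A4GALT at 5.08 CPM in PSN1 AM-9747 replicate 4 (others 7.39 to 7.54). Of the pathway genes in PSN1, SLC35C2 stood at 70.1 CPM in vehicle replicate 1 (others 95.7 to 99.3) and B4GALT2 at 156 CPM in vehicle replicate 3 (others 107 to 114). In MIAPACA2, TSTA3 stood at 41.0 CPM in vehicle replicate 1 (others 32.7 to 34.1). In BXPC3, ST6GALNAC1 stood at 11.1 CPM in vehicle replicate 2 (others 9.32 to 9.60) and ST6GALNAC2 at 165 CPM in vehicle replicate 4 (others 121 to 125).

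Responses to AM-9747 differed between the lines for 5 of the named pathway genes, by the F test of edgeR's joint fit over all genes. The adjusted p was 0.00451 for B4GALT5, 0.0188 for SLC35C2, 0.0296 for B3GALNT1, 0.0373 for HEXA and 0.0428 for FPGT. FUT1 stood higher in all treated BXPC3 libraries and lower in all treated PSN1 libraries than in vehicle, at log2 0.46 and -3.50, and that difference between the lines was not tested.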

How the results depend on the processing

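Of the 10 genes and the pathway genes named by the rule above, none that passed changed direction under any alternative. FUT6 and the other genes named outside that rule were not part of this check. BXPC3 had 5158 calls over all genes, 27 over the pathway lists and 4 over the 10 glycosyltransferase genes. These were 2414, 14 and 2 in the joint fit, and 8025, 46 and 7 with the mitochondrial share as a covariate. MIAPACA2 had 2456, 11 and 1. These were 1151, 6 and 2 in the joint fit and 6382, 26 and 3 with the mitochondrial covariate, and the count of the 10 genes was 2 without scaling, without the filter and with DESeq2. PSN1 had 1954, 6 and 1. These were 5761, 16 and 4 in the joint fit, with 3942 calls and 3 of the 10 genes by DESeq2 and 2 of the 10 without the filter. The 11 pathway genes whose response differed between lines were 6 without the filter and 23 by DESeq2. The cause of these shifts was not tested.

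With 1 library left out at a time, BXPC3 gave 3707 to 6763 calls over all genes, 22 to 34 over the pathway lists and 2 to 8 over the 10 genes (2 without vehicle replicate 1 or AM-9747 replicate 2, 8 without vehicle replicate 4). MIAPACA2 gave 1142 to 3243 calls over all genes, with 1256 without vehicle replicate 3 and 1142, 1317 and 1389 without AM-9747 replicates 1, 2 and 4. Its pathway count was 6 to 17 (7 without vehicle replicate 3, 6 and 17 without AM-9747 replicates 1 and 3) and that of the 10 genes 1 to 3 (3 without vehicle replicate 4, 2 without AM-9747 replicate 3). PSN1 gave 530 to 4370 calls, 3 to 13 over the pathway lists and 1 to 3 over the 10 genes. Without PSN1 vehicle replicate 1 these were 4370, 13 and 3, and without vehicle replicate 2 or 4 or AM-9747 replicate 1, 2 or 4 the pathway count was 3. The count of differing responses ran from 4 to 29, with 29 without PSN1 vehicle replicate 1 and 4 to 7 without 12 other libraries: BXPC3 vehicle 1, 2 and 3 and AM-9747 2 and 3, MIAPACA2 vehicle 2 and 3 and AM-9747 1 and 2, and PSN1 vehicle 4 and AM-9747 1 and 2.

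Libraries with the same replicate number were alike in some pairs only, and what the numbers mark is not given. Deviations of same-numbered libraries correlated at -0.02 to 0.32 in BXPC3, -0.19 to 0.16 in MIAPACA2 and -0.07 to 0.42 in PSN1, over 0.1 in 2, 1 and 2 of 4 pairs, and 4, 1 and 3 of the 8 libraries of a line, vehicle and treated together, correlated best with their own number. With the replicate number as a block, calls over all genes and over the 10 genes were 7119 and 7 for BXPC3, 1700 and 2 for MIAPACA2 and, for PSN1, 3355 and 2, and the responses of 23 pathway genes differed between lines. Depth limits FUT1 and ST3GAL6 in MIAPACA2, which were below the filter in the fit of that line alone and have no fold change from it. On these low counts the joint fit gave log2 2.93 for FUT1, which passed there, and -0.95 for ST3GAL6, which did not. FUT1 also passed in MIAPACA2 without vehicle replicate 4.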
